A study of Mus musculus and Homo sapiens with 33 samples.

Results

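The genes described here encode 35 proteins of the mitotic spindle and of microtubules that have no kinesin motor domain. They were taken by symbol from a list of spindle pole, central spindle, augmin, plus-end and other microtubule-associated proteins, and were counted in a matrix of 38924 gene identifiers. All 35 symbols were found, under 36 identifiers, because Map4 had a further identifier with 0 reads. The cells were KPL cells, a murine lung adenocarcinoma line. There were 3 control libraries, which the sample descriptions name EtOH, and 3 libraries of cells given 4-hydroxytamoxifen (4-OHT) for 72 hours to delete Lin9, at a dose that the labels give as 10 nm. Lin9 encodes a subunit of MuvB, a complex that joins B-MYB on the promoters of mitotic genes. The control cells were the same line without 4-OHT, so effects of the compound itself and of the Lin9 deletion cannot be told apart. The sources used here do not give the alleles of the line or the recombinase that acts on them. Nothing in the labels says that the libraries of a group came from separate cultures, and the p-values below measure only their spread, which may be technical.

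The spindle is built from microtubules that are nucleated at the poles, around chromosomes and, through augmin, along microtubules that already exist. Pole proteins such as Aspm and Numa1 focus the minus ends, polymerases and plus-end proteins set how the other end grows, and Prc1 bundles antiparallel microtubules between the separating chromosomes in anaphase. Some of these proteins are made mainly by cells in G2 and mitosis, whereas others also organise microtubules in interphase.

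Each library held between 5859826 and 5913942 counted reads. Lin9 itself was counted with 156, 124 and 159 reads in control replicates 1 to 3 and with 108, 107 and 101 reads in the 4-OHT replicates, so 71.1% of its whole-gene level remained (edgeR quasi-likelihood test, adjusted p = 0.0011). Which exons are deleted is not given in the sources used here, and reads from the others stay in this count. Of the epithelial markers, all 8 were detected, with a summed level of 6347 to 6406 CPM (reads relative to the scaled library size, a unit in which libraries can be compared) in control and 6215 to 6397 CPM in 4-OHT libraries, and 4 of them (Epcam, Krt7, Cdh1 and Cldn7) were lower after 4-OHT. Of the 9 alveolar type 2 markers, Sftpc, Sftpa1 and Napsa were listed at 0 in every library, and Sftpb and Sftpd had at most 1 read. Abca3 (336 to 367 reads), Etv5 (354 to 404), Lamp3 (46 to 57) and Nkx2-1 (25 to 46) were detected in every library and not called. The list as a whole summed to 139 to 142 CPM in control and 130 to 141 CPM in 4-OHT libraries. The alveolar type 1 list summed to 438 to 458 and 390 to 426 CPM, nearly all of it Aqp5, which was lower, and the club and ciliated list to 3.41 to 4.42 and 3.22 to 4.07 CPM. Summed markers of fibroblasts and mesenchyme, nearly all of it Vim, lay at 2772 to 2805 CPM in control and 3066 to 3129 CPM in 4-OHT libraries, those of endothelium at 8.51 to 10.9 and 9.81 to 10.2 CPM and those of leukocytes at 3.24 to 8.86 and 4.91 to 5.77 CPM. The leukocyte marker Cd3e was at 0 in every library. The part of the shifts in epithelial markers, Aqp5 and Vim in the results below was not tested.

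Of the 35 genes, 32 passed the low-count filter and were tested, and 3 (Tacc2, Haus3 and Haus5) were listed at 0 in every library. Cdt1, Gins2 and Kif18b, genes that dividing cells use and that were named after their values were seen, were also listed at 0 in all 6 libraries. Whether the counting dropped reads of such genes is not known, so a listed 0 is given no upper limit of expression here. Of the 32, Psrc1 alone had fewer than 10 reads in any library. After 4-OHT, 15 were lower and 1, Clip1, was higher, while 16 did not pass the test (quasi-likelihood test of edgeR, with p-values adjusted by Benjamini-Hochberg over all genes tested and a threshold of 0.05). The 15 make up 46.9% of the tested members. Across all 13355 genes tested, 5.17% were called lower and 4.61% higher. The median log2 fold change of the 32 members was -0.12, beside 0.00052 for all genes. In 16 of the 32 members every 4-OHT library lay below every control library, which was so for 12.2% of all genes; these were the 15 called lower and Haus7. In 4 members (Tacc1, Haus6, Haus8 and Clip1) every 4-OHT library lay above every control library, which was so for 12.1% of all genes. In bulk RNA, fewer cells in mitosis and less RNA per cell cannot be told apart.

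By role, all 6 of the other mitosis-associated spindle proteins (Ckap2, Ckap2l, Troap, Fam83d, Gtse1 and Psrc1) were lower, as were 5 of 6 spindle pole and assembly genes, 2 of 3 tested genes of the TACC family with its polymerase partner, and Prc1. None of 6 tested augmin genes was called by edgeR, although 2 had an unadjusted p under 0.05, and DESeq2 and limma-voom also called none. Of the 6 plus-end genes, 5 did not pass and Clip1 was higher. Among the 4 genes for lattice-binding, severing and destabilising proteins, Stmn1 was lower. The 15 lower members kept between 29.0% and 86.6% of their control level, with a median log2 fold change of -0.77. The other 17 lay between 89.5% and 121% of control, with a median of 0.07.

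**Figure D1:**
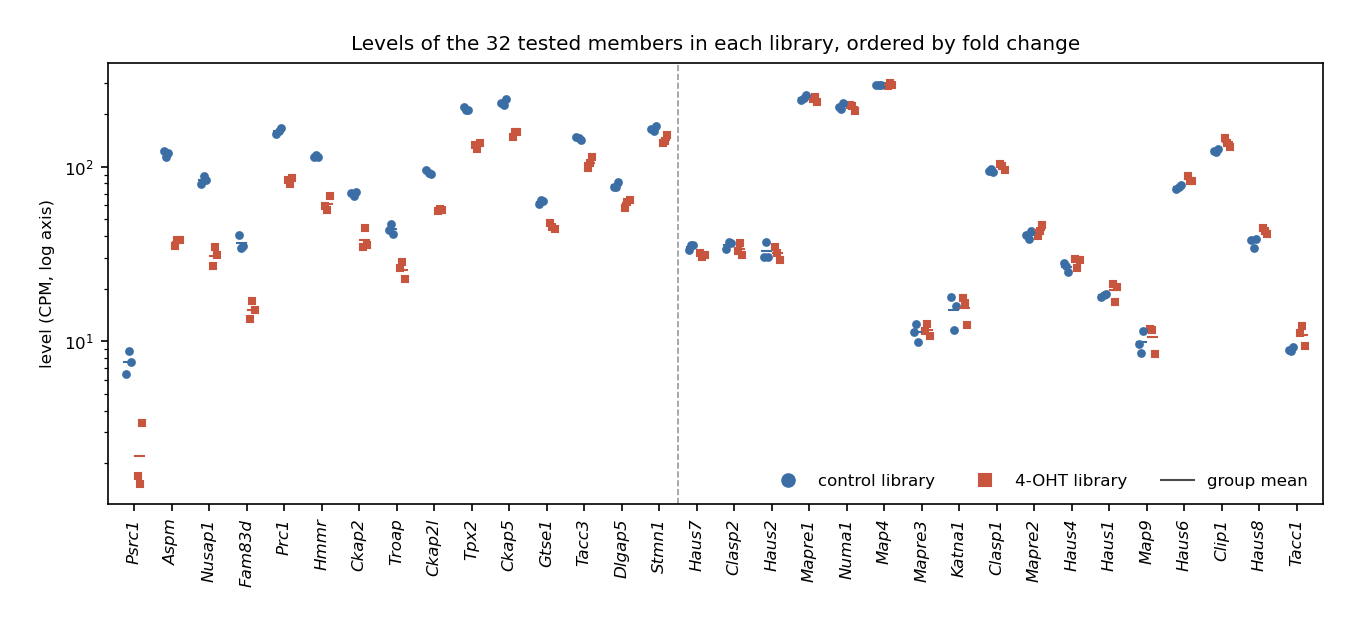
Level of each of the 32 tested members in CPM (log axis) in the 3 control (circles) and 3 4-OHT (squares) libraries, with group means as lines and genes ordered by fold change. Left of the dashed line stand the 15 members called lower, where no square reaches a circle of the same gene; levels are not divided by transcript length, so they compare libraries and not genes.

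Summed over the 32 tested members, the level was 2939, 2927 and 2991 CPM in control and 2338, 2368 and 2335 CPM in 4-OHT libraries. The groups did not overlap, and the sum stood at 79.5% of control (two-sided exact permutation test over libraries, p = 0.1, the smallest that 3 against 3 allows). The sum of the 15 lower members went from 1625 ± 15.1 to 990.9 ± 33.9 CPM (mean ± SD, n = 3 each), which is 61.0% of control. That of the other 17 stood at 1327 ± 20.7 and 1356 ± 38.4 CPM. The members were split by their call in these same libraries, so the contrast between these 2 sums follows from that choice. Among the 15 lower members the 4-OHT libraries were alike but not equal. The median deviation from the 4-OHT mean on the log2 scale was -0.07 in replicate 1, 0.02 in replicate 2 and 0.04 in replicate 3, and 4, 8 and 10 of the 15 genes lay above the mean. In control replicates 1 to 3 the same deviation was -0.0058, -0.012 and -0.0033.

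The promoters of these genes were examined because MuvB binds a short DNA element, the cell cycle genes homology region (CHR), through its subunit Lin54. The element was searched as TTTGAA only, and any other spelling of it was not counted. CHR elements often stand downstream of CCAAT boxes, which NF-Y binds. RefSeq promoter windows of GRCm38.p6, from 250 bases before to 50 bases after an annotated start, were matched by symbol. They were used for 27 of the 35 members (37 windows). The sequences below run 5′ to 3′ on the gene's strand from 150 bases before to 30 bases after the start, in lower case. Capitals mark TTTGAA and CCAAT on either strand, so that TTCAAA and ATTGG are their reverse complements. Of the 7 lower genes with TTTGAA, 6 are shown first, then Nusap1, which was lower and held neither element, and Haus6, an augmin gene that did not pass the test. Aspm lies at chr1:139454623-139454802 (+ strand), Fam83d at chr2:158767949-158768128 (+), Prc1 (the upstream of its 2 starts) at chr7:80294301-80294480 (+) and Hmmr at chr11:40733408-40733587 (-). Ckap2l lies at chr2:129297183-129297362 (-), Ckap5 at chr2:91526612-91526791 (+), Nusap1 at chr2:119618148-119618327 (+) and Haus6 at chr4:86612026-86612205 (-).
Aspm: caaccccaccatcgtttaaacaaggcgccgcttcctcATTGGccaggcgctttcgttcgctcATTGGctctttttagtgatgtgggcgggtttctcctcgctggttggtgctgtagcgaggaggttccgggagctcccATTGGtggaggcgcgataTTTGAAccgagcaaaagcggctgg
Fam83d: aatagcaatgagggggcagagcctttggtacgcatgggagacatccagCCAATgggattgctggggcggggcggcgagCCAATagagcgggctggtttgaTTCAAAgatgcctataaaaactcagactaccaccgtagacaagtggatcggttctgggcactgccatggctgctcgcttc
Prc1: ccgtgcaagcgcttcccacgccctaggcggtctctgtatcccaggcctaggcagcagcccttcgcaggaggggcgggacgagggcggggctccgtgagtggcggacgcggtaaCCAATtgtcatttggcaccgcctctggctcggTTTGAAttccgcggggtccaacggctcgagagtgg
Hmmr: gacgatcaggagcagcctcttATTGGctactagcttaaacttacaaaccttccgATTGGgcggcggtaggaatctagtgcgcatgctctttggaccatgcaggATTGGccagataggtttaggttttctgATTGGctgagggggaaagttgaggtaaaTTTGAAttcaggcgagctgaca
Ckap2l: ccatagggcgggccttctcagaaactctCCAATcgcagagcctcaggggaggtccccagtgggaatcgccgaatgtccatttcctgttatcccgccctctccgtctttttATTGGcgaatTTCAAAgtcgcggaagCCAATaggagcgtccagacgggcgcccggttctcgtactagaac
Ckap5: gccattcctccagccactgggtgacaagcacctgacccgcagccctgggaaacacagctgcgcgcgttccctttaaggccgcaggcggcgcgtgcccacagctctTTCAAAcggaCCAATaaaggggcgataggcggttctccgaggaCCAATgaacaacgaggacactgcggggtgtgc
Nusap1: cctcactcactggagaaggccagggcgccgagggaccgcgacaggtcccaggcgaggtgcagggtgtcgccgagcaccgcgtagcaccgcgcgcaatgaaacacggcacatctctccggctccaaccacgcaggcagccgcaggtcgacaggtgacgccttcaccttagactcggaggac
Haus6: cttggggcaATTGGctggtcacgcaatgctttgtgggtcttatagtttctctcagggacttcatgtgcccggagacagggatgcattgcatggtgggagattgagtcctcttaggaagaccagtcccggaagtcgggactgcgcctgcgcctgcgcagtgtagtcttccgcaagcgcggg

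The position of TTTGAA differed between these genes. Counting the start as base 1, with negative numbers before it, Aspm and Hmmr held it just downstream of the start, at bases 7 to 12 and 9 to 14. Prc1 held it across the start, from -5 to 1. Fam83d (-50 to -45), Ckap5 (-45 to -40) and Ckap2l (-30 to -25) held it on the opposite strand upstream, and Ckap2l held a further one at 42 to 47. In Ckap2, the seventh gene, it lay farther away, at -101 to -96. In Aspm, Hmmr, Fam83d and Prc1 every CCAAT match of the window shown lay upstream of TTTGAA, whereas in Ckap2 and Ckap5 the CCAAT matches lay downstream of it.

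Over the full windows, with any start counted, 7 of the 12 lower genes with a window used (58.3%) held TTTGAA on either strand. Of the 12 tested genes with a window used that were not lower, 1 held it (8.33%). This was Clasp2, at 1 of its 3 starts. No window was used for Tpx2, Dlgap5 and Stmn1 among the lower genes. The same holds for Haus1, Mapre2, Tacc1, Clasp1 and Katna1 among the others. For members, any window on chromosome 18, where Haus1 and Mapre2 lie, was left out. This filter was not applied to the shares over all windows. Whether Haus1 or Mapre2 would hold TTTGAA was not examined. A gene without a window used here may still have one in RefSeq. Of all 32851 windows in the RefSeq table, 17.9% held TTTGAA. All 7 lower genes with TTTGAA also held CCAAT in the same gene's windows, a combination found in 6.95% of all windows. Clasp2, the 1 other tested gene with TTTGAA, held both as well. CCAAT, with or without TTTGAA, was in 10 of 12 lower genes and 7 of 12 others, with 37.4% of all windows holding it. The MYB core, spelled AACGG, was in 8 of 12 lower genes and 4 of 12 others, and in 17.4% of all windows. None of the 24 genes held an E2F site spelled TTTCCCGC, TTTGGCGC, TTTCGCGC or TTTGCCGC, which 2.27% of all windows hold. The TEAD core, spelled GGAATG and bound by the DNA-binding partners of YAP, was in 2 of 12 lower genes and 4 of 12 others, and in 14.7% of all windows. A few genes have several windows, so shares of genes and shares of windows are not on the same footing. These matches are letters in a window and were not set against binding data.

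**Figure D2:**
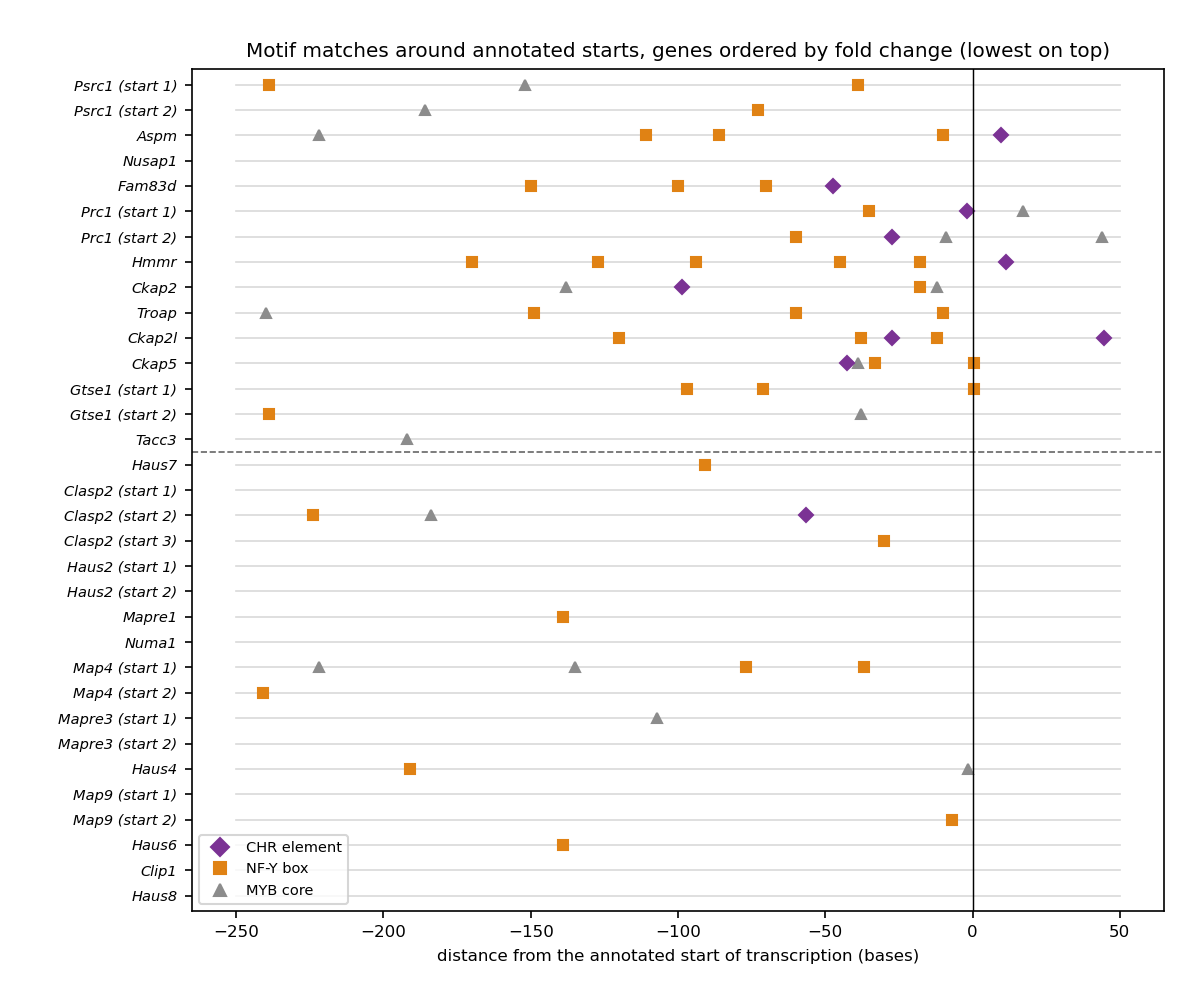
Matches to the CHR element, searched as TTTGAA only (diamonds), the CCAAT or NF-Y box (squares) and the MYB core (triangles) on either strand. Windows run from 250 bases before to 50 bases after each annotated start (vertical line). The 24 tested members with a window used are ordered by fold change. Above the dashed line are the 12 genes called lower, 7 of which have a diamond; below it only Clasp2 has one.

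Among the spindle pole and assembly genes, 5 of 6 fell and Numa1 did not pass, with a median log2 fold change of -0.80. Aspm, which holds microtubule minus ends at the poles and in which mutations cause primary microcephaly, was counted at 722, 659 and 701 reads in control and 207, 224 and 225 reads in 4-OHT libraries. The libraries of each group lay close together and far from the other group. This left 31.1% of the control level, with a 95% interval of 28.5% to 34.0% (edgeR adjusted p = 1.89e-38).

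Nusap1, whose product bundles microtubules near chromosomes, had 466, 515 and 489 reads in control and 159, 205 and 184 in 4-OHT libraries. The highest 4-OHT library stayed far below the lowest control. Its level fell from 84.0 ± 4.34 to 30.9 ± 3.82 CPM, or 36.8% of control (edgeR adjusted p = 1.15e-29). Its promoter window above held neither TTTGAA nor CCAAT. Over 208 bases its annotated span overlaps Oip5, which stood at 99.2% of control and was not called.

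Hmmr, a hyaluronan-binding protein that also acts at spindle poles with Tpx2, had 660, 678 and 663 reads in control and 349, 334 and 398 in 4-OHT libraries. The control libraries hardly differed, and 4-OHT replicate 3 was the highest of its group. The level fell from 114.3 ± 1.84 to 61.0 ± 5.82 CPM (a log2 change of -0.91 with an SE of 0.06, adjusted p = 2.96e-23 in edgeR). Tpx2, which activates Aurora A and drives nucleation around chromosomes, had 1279, 1232 and 1233 reads in control and 780, 750 and 806 in 4-OHT libraries. No libraries of the 2 groups overlapped. It fell from 213.9 ± 4.31 to 131.9 ± 5.15 CPM, or 61.6% of control (edgeR adjusted p = 3.22e-24).

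Dlgap5, also called HURP, stabilises the kinetochore fibres and fell least of the 5. It had 445, 445 and 476 reads in control and 340, 371 and 379 in 4-OHT libraries. The groups were apart but closer than for the other 4 genes. The level was 78.8% of control (a log2 change of -0.34 with an SE of 0.06, adjusted p = 2.45e-05 in edgeR). Tested against changes of up to 1.2-fold, the call was not kept (edgeR glmTreat adjusted p = 0.837).

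Numa1, which ties minus ends to dynein at the pole and at the cell cortex, had 1275, 1248 and 1354 reads in control and 1322, 1320 and 1223 in 4-OHT libraries. The groups overlapped. Its level was 98.5% of control, with a 95% interval of 93.1% to 104% (edgeR adjusted p = 0.831). The mildest of the other 5 changes, that of Dlgap5 to 78.8%, lay outside this interval.

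**Figure D3:**
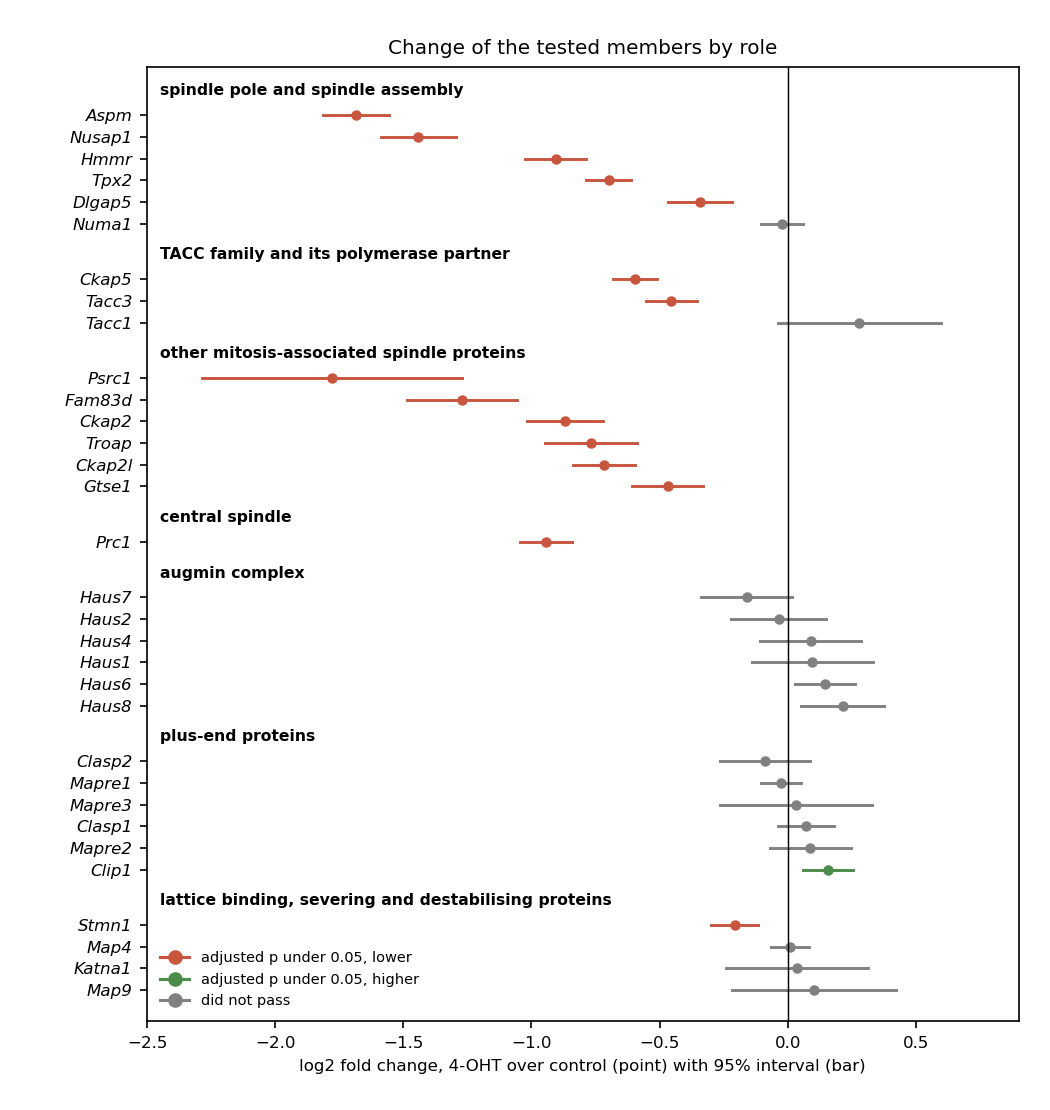
Log2 fold change of 4-OHT over control (points) with its 95% interval (bars) from the edgeR fit, for the 32 tested members grouped by role. The 15 members called lower lie left of 0 in the pole, TACC, mitosis-associated and central spindle groups and at Stmn1, while the 6 augmin genes lie between -0.16 and 0.21.

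In the TACC family and its partner, Tacc3 and Ckap5 fell and Tacc1 did not pass. Ckap5, the mouse counterpart of chTOG, is a polymerase that adds tubulin at plus ends and is brought to the spindle by Tacc3. It had 1359, 1308 and 1420 reads in control and 866, 938 and 934 in 4-OHT libraries. All 4-OHT libraries were lower, with replicate 1 the lowest. The level fell from 233.5 ± 9.42 to 154.5 ± 6.66 CPM, or 66.2% of control (a log2 change of -0.60 with an SE of 0.04, adjusted p = 7.42e-21 in edgeR). For 8.82% of its length the span of Ckap5 overlaps F2, which had at most 2 reads in any library.

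Tacc3, a clathrin- and chTOG-binding protein that bridges kinetochore microtubules, had 859, 847 and 823 reads in control and 582, 622 and 665 in 4-OHT libraries. The groups did not overlap. The level was 73.0% of control (edgeR adjusted p = 7.86e-12). Tacc1, a family member that is also present outside mitosis, had 52, 51 and 54 reads in control and 66, 72 and 55 in 4-OHT libraries. Its 4-OHT replicate 3 lay next to the controls. With a log2 fold change of 0.28 and a 95% interval of -0.04 to 0.60 it did not pass (edgeR adjusted p = 0.319). Tacc2 was listed at 0 in every library.

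The difference between Tacc3 and Tacc1 was taken as a ratio within each library. The log2 ratio of Tacc3 to Tacc1 reads was 4.05, 4.05 and 3.93 in control and 3.14, 3.11 and 3.596 in 4-OHT libraries. The groups did not overlap. It was lower by a mean log2 difference of -0.73 (SE 0.16) in 4-OHT libraries, with an exact permutation p of 0.1, the smallest that this design allows, and 0.375 after adjustment over the 5 pairs of related genes compared.

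**Figure D4:**
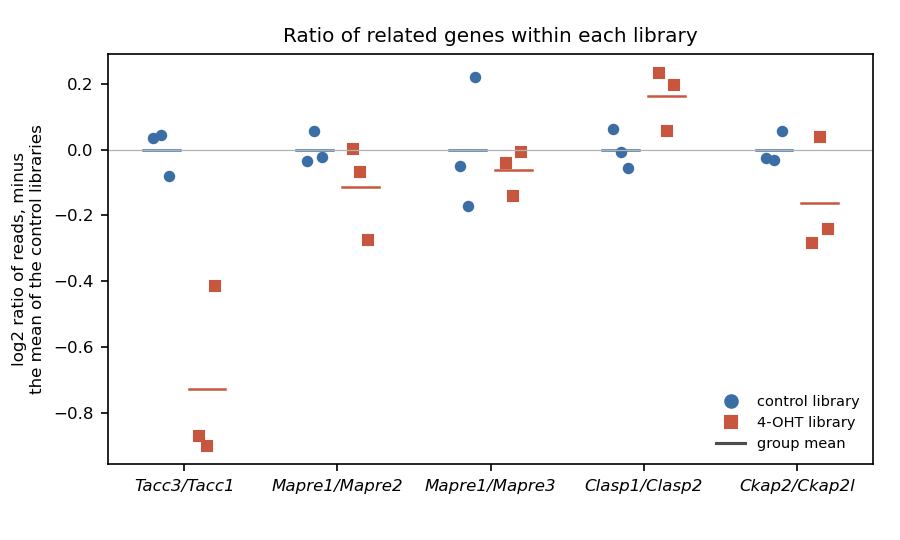
Log2 ratio of the reads of 5 pairs of related genes within each control (circle) and 4-OHT (square) library, set to 0 at the control mean of each pair, with group means as lines. The squares of Tacc3/Tacc1 lie below all circles, with a mean difference of -0.73, whereas squares and circles overlap for Mapre1/Mapre2, Mapre1/Mapre3, Clasp1/Clasp2 and Ckap2/Ckap2l.

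All 6 of the other mitosis-associated spindle proteins fell, with a median log2 fold change of -0.82. Psrc1, a microtubule-binding protein also called DDA3, kept the smallest share of its control level among the 32 tested members but had few reads, namely 38, 51 and 44 in control and 10, 9 and 20 in 4-OHT libraries. The highest 4-OHT library, replicate 3, still lay below every control. The level went from 7.60 ± 1.13 to 2.20 ± 1.04 CPM, or 29.0% of control, with a 95% interval of 20.5% to 41.5% (edgeR adjusted p = 5.36e-08). That interval holds the value of Aspm, so the order of the 2 genes cannot be read from these libraries.

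Fam83d, which recruits casein kinase 1 to the spindle for its positioning, had 236, 199 and 204 reads in control and 79, 100 and 89 in 4-OHT libraries. Control replicate 1 stood above the others of its group. The level fell from 36.5 ± 3.39 to 15.1 ± 1.74 CPM, or 41.4% of control (edgeR adjusted p = 5.57e-17).

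Ckap2 and Ckap2l encode related proteins that bind spindle microtubules. Ckap2 had 410, 394 and 415 reads in control and 204, 262 and 210 in 4-OHT libraries, the middle of which stood above the other 4-OHT libraries. It kept 54.8% of its control level (edgeR adjusted p = 7.83e-17). Ckap2l had 555, 535 and 531 reads in control and 330, 339 and 330 in 4-OHT libraries, with almost no spread in the latter. It kept 60.9% (edgeR adjusted p = 5.91e-17). The log2 ratio of Ckap2 to Ckap2l changed by -0.16 (SE 0.10, exact permutation p = 0.3, adjusted 0.375), and its values overlapped between the groups.

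Troap, also called tastin, is needed for bipolar spindles and had 252, 274 and 240 reads in control and 154, 168 and 133 in 4-OHT libraries. It kept 58.7% of control (a log2 change of -0.77 with an SE of 0.09, adjusted p = 7.87e-11 in edgeR). Gtse1 holds back the microtubule depolymerase MCAK and had 357, 377 and 368 reads in control and 279, 267 and 260 in 4-OHT libraries. It kept 72.2%, the mildest fall of the 6 (edgeR adjusted p = 1.59e-07). For neither gene did the groups overlap.

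Prc1, the crosslinker of the central spindle, had 902, 931 and 970 reads in control and 495, 474 and 507 in 4-OHT libraries. Both groups were tight and lay far apart. The level fell from 160.2 ± 5.94 to 83.3 ± 3.09 CPM, or 52.0% of control (95% interval 48.5% to 55.8%, edgeR adjusted p = 1.84e-28). Nearly the whole span of Prc1 (99.3%, 21669 bases) lies within that of Rccd1, and use of strand in the counting is not given in the sources used here. Rccd1 had 20 to 32 reads in control and 30 to 33 reads in 4-OHT libraries and was not called.

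The augmin complex, which recruits the gamma-tubulin ring complex to the side of existing microtubules, was measured through 6 of its 8 subunit genes. Their log2 fold changes ran from -0.16 to 0.21, with a median of 0.09, and no call was made. Haus8, the subunit that binds the microtubule, had 222, 199 and 223 reads in control and 263, 252 and 241 in 4-OHT libraries. All 4-OHT libraries lay above the controls. The log2 fold change was 0.21 (95% interval 0.05 to 0.38, unadjusted p = 0.0106, edgeR adjusted p = 0.0862).

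Haus6, which contacts the gamma-tubulin ring through Nedd1, had 437, 444 and 459 reads in control and 524, 491 and 484 in 4-OHT libraries. These too did not overlap. The log2 fold change was 0.14 (95% interval 0.03 to 0.26, unadjusted p = 0.0165, edgeR adjusted p = 0.117). Haus7 lay the other way, with 194, 206 and 208 reads in control and 188, 180 and 183 in 4-OHT libraries and a log2 fold change of -0.16 (95% interval -0.34 to 0.02, adjusted p = 0.3004 in edgeR). Haus6, Haus7 and Haus8 thus lay on both sides of 0, and none of them passed.

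For Haus1, Haus2 and Haus4 the groups overlapped, with log2 fold changes of 0.09, -0.04 and 0.09. Haus3 and Haus5 were listed at 0 in every library. The span of Haus3 lies wholly (100.0%) within that of Poln, which had 45 to 63 reads in control and 46 to 63 reads in 4-OHT libraries and was not called. Haus5 overlaps no protein-coding gene in the RefSeq table.

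The plus-end genes encode end-binding proteins and their partners, which work throughout the cell cycle. Mapre1, the gene of EB1, had 1411, 1434 and 1496 reads in control and 1441, 1484 and 1388 in 4-OHT libraries. The groups overlapped, and the level was 98.1% of control (95% interval 93.0% to 104%). The other EB genes, Mapre2 and Mapre3, had log2 fold changes of 0.09 and 0.03, and the CLASP genes, whose products rescue shrinking microtubules, had 0.07 (Clasp1) and -0.09 (Clasp2). None of the 5 passed in edgeR, DESeq2 or limma-voom, and none had an unadjusted p under 0.05 in edgeR.

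Clip1, which encodes CLIP-170, had 721, 703 and 735 reads in control and 861, 813 and 763 in 4-OHT libraries. The groups did not overlap, although 4-OHT replicate 3 came close to control replicate 3. The level rose from 123.4 ± 2.63 to 137.6 ± 8.26 CPM, or 111% of control (a log2 change of 0.16 with an SE of 0.05, adjusted p = 0.0253 in edgeR). The call was lost in DESeq2 (adjusted p = 0.245) and in edgeR without control replicate 1 (adjusted p = 0.0910), control replicate 2 (0.106), 4-OHT replicate 1 (0.233) or 4-OHT replicate 2 (0.0739).

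Within the plus-end families the log2 ratios did not pass either. The ratio of Mapre1 to Mapre2 differed by -0.11 (exact permutation p = 0.3), that of Mapre1 to Mapre3 by -0.06 (exact permutation p = 0.9) and that of Clasp1 to Clasp2 by 0.16 (SE 0.06, exact permutation p = 0.2), with adjusted values of 0.375, 0.9 and 0.375.

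Among the remaining genes, Stmn1 fell. It encodes stathmin, which sequesters tubulin and is switched off by phosphorylation in mitosis. It had 957, 928 and 990 reads in control and 802, 828 and 890 in 4-OHT libraries, and the highest 4-OHT library lay just below the lowest control. The level went from 164.3 ± 5.18 to 142.2 ± 7.84 CPM, or 86.6% of control (a log2 change of -0.21 with an SE of 0.05, adjusted p = 0.000696 in edgeR). Tested against changes of up to 1.2-fold, this call was also not kept (edgeR glmTreat adjusted p = 1).

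Map4, a lattice-binding protein of most tissues, had 1709, 1709 and 1702 reads in control and 1705, 1784 and 1726 in 4-OHT libraries. Its level was 101% of control, with a 95% interval of 95.7% to 106%, the narrowest bounds of the 32 tested members on the log2 scale. Katna1, the catalytic subunit of katanin, had 105, 67 and 93 reads in control and 104, 98 and 73 in 4-OHT libraries, so both groups were wide and overlapped. Its log2 fold change was 0.04 (95% interval -0.24 to 0.31). Map9, a spindle protein also called ASAP, had a log2 fold change of 0.10 (95% interval -0.22 to 0.42).

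In the authors' deposited table, the 32 tested members had the same calls at an FDR of 0.05, with 15 lower and 1 higher. Their log2 fold changes differed from those given here by at most 0.0032. The FDR of Clip1 in the authors' deposited table was 0.0497.

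Genes of neighbouring steps were taken from lists from which the members were removed. All 8 central spindle partners of Prc1 were lower, with a median log2 fold change of -0.52. Kif23 and Racgap1, which form the centralspindlin complex, had log2 fold changes of -0.73 (SE 0.04) and -0.50 (SE 0.04). The call of Ect2 in this list, named after its values were seen, was lost in DESeq2 (adjusted p = 0.177) and when any of control replicates 1 and 3 and 4-OHT replicate 2 was left out. Of 12 tested mitotic kinesins 11 were lower (9 in DESeq2), with a median of -0.53. The kinetochore motor gene Cenpe fell from 189.6 to 98.6 CPM (a log2 change of -0.94 with an SE of 0.05). Of 4 tested genes around Aurora A, the kinase that Tpx2 activates, Aurka (a log2 change of -1.12 with an SE of 0.07) and its activator Bora (-0.62, SE 0.08) were lower. Ajuba, named after its values were seen, was called higher by 0.14, a call lost in DESeq2 (adjusted p = 0.204) and when any of control replicate 1, control replicate 2 and 4-OHT replicate 2 was left out.

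Genes of the machinery that augmin and Numa1 work with were taken as 2 lists. Across all genes tested, 5.17% were called lower and 4.61% higher. Of 12 gamma-tubulin ring and recruitment genes 1 was lower, the small ring subunit gene Mzt1 (a log2 change of -0.28 with an SE of 0.07, adjusted p = 0.00298 in edgeR), which did not pass in DESeq2 (adjusted p = 0.0669). The median of the 12 was -0.04. Of 14 genes for cortical partners of Numa1, dynein and dynactin, 2 were lower and 2 higher, and DESeq2 called the 2 lower and neither of the higher. The lower ones were Gpsm2, whose product anchors Numa1 at the cortex (a log2 change of -0.42 with an SE of 0.07), and the dynein regulator gene Nde1 (-0.36, SE 0.05).

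Of 12 other plus-end genes 3 were lower. Knstrn (a log2 change of -0.62 with an SE of 0.06) and Spag5 (-0.39, SE 0.06) encode SKAP and astrin, which work together at kinetochores. The third, Ska2, was named after its values were seen, and its call was lost in DESeq2 (adjusted p = 0.0609) and when 4-OHT replicate 3 was left out (0.0518). Of 10 minus-end, severing and tubulin-sequestering relatives, Fignl1 was called, with a rise from 56.4 to 73.5 CPM (a log2 change of 0.38 with an SE of 0.07, adjusted p = 6.57e-06 in edgeR). Of 9 other structural microtubule-associated protein genes, none was called by edgeR, DESeq2 or limma-voom, with 3 at an unadjusted p under 0.05 in edgeR. The most abundant by CPM, Map1b, had a log2 fold change of 0.12 (edgeR adjusted p = 0.0835). Each gene counted once, these lists gave 25 lower and 4 higher of 79 tested, with a median of -0.05.

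Genes of G1/S and replication belong to an earlier phase of the cell cycle. Of 18 tested, 8 were lower (4 in DESeq2), with a median log2 fold change of -0.14 and a lowest value of -0.44. Mcm6 and Mcm5, subunits of the replicative helicase, had log2 fold changes of -0.28 and -0.27. The median of all 32 tested members was -0.12, with a lowest value of -1.78, and no difference between the lists was tested.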

How the data were processed

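Polyadenylated RNA of 6 KPL libraries was used. The other 27 samples, all ChIP-seq, were not analysed here. The matrix deposited by the authors gives raw counts of reads for each Ensembl gene, in whole numbers. The authors' deposited table gives log2 fold changes and, per the file headers, a p-value and FDR. Per the submitters' processing notes, TopHat2 2.1.0, Bowtie 1.1.2, Bowtie2, bedtools 2.26.0 and edgeR were used, with no roles. Neither the counting program nor its strand setting is given in the sources used here. Of 38951 lines, 27 repeated ones (0.109% of reads, 12 identifiers) were kept once.

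Genes were filtered with filterByExpr (minimum count 10, minimum total 15), which left 13355 genes with 99.7% of the reads. The test was edgeR's quasi-likelihood F test with robust fitting (edgeR 4.0.16, limma 3.58.1, R 4.3.3), two-sided, with TMM factors (CPM uses counts per TMM-scaled library) of 0.994 to 1.01 and Benjamini-Hochberg adjustment over all genes tested. The SE is the log2 fold change divided by the square root of F. Replicates of a group differed beyond sampling noise (1.23 to 1.42 chi-square units for each degree of freedom), so none was merged. Coordinates and promoters are those of RefSeq for GRCm38.p6. Other scalings and filters, DESeq2 1.42.0, limma-voom, a replicate block and leaving out each library were tried, and the procedure was tested on simulated data.

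The members, lists and tests were chosen with earlier results of these data known. All members were named, and of each other list the 2 called genes with the smallest p, or with no call the gene of highest mean CPM. Genes named for an overlapping span were chosen by position, and the text says which others were named after their values were seen.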

Additional observations from a re-analysis of the deposited data

How the results depend on the processing

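The 15 members called lower were the same number under other scalings, other filters, DESeq2, limma-voom and a replicate block, and 13 passed against a 1.2-fold null hypothesis, where Dlgap5 and Stmn1 were lost. Without 1 library the number was 15 each time. All 195 values of these 15 genes under the 13 alternatives other than that null hypothesis kept their direction and their call. The 1 member called higher, Clip1, became 0 in DESeq2 and against the 1.2-fold null hypothesis, and 0 to 1 when each library was left out. Over all genes, DESeq2 called 362 lower and 208 higher. Leaving out each library gave 508 to 643 lower and 403 to 542 higher, the fewest higher without control replicate 1. The cause was not tested.

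Of 221 values of the other 17 tested members, 206 kept direction and side of the threshold, 5 were the lost Clip1 calls and 10 changed sign, all in genes near 0 that never passed and all when 1 library was left out. Over the 6 sets of libraries the log2 fold changes ran from -0.097 to 0.065 for Haus2, -0.13 to 0.18 for Katna1, -0.0070 to 0.022 for Map4, -0.049 to 0.12 for Mapre3 and -0.046 to 0.013 for Numa1, and the difference in the log2 ratio of Mapre1 to Mapre3 from -0.15 to 0.048.

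Same-numbered libraries did not deviate together more than others (correlations 0.0332, 0.0252 and -0.0498, beside -0.0677 to 0.0421 for differently numbered ones). With 3 libraries a group a small shared effect could stay unseen, so pairing is neither shown nor excluded. With a replicate block 15 members were lower and 1 higher, and 665 and 579 of all genes. Members with few reads (Psrc1, Tacc1, Map9, Mapre3 and Katna1) had the widest intervals.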

Other observations

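Nde1 and Ndel1 encode related regulators of dynein, and both were called, in opposite directions. Ndel1 was chosen after its values were seen. Nde1 had 637, 660 and 637 reads in control and 480, 531 and 511 in 4-OHT libraries, a fall to 77.7% of control (edgeR adjusted p = 1.78e-07). Ndel1 had 368, 387 and 417 reads in control and 448, 476 and 436 in 4-OHT libraries, or 115% of control (edgeR adjusted p = 0.0279). For neither gene did the groups overlap, and the difference between them was not tested. The Ndel1 call was lost in DESeq2 (adjusted p = 0.265) and when any of control replicates 1 and 2 and 4-OHT replicate 2 was left out. The other higher gene of that list, Dync1li2, a dynein light intermediate chain gene also chosen after its values were seen, had 894, 879 and 901 reads in control and 996, 1001 and 1003 in 4-OHT libraries, or 111% of control. Its call was lost in DESeq2 (adjusted p = 0.176) and without control replicate 1 or control replicate 2.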
